A study of Arabidopsis thaliana with 14 samples.

Results

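The comparison concerns untreated Arabidopsis thaliana Col-0 seedlings collected at 12 h against untreated seedlings collected at 3 h. The groups were taken from the sample titles and hold 2 arrays each, 4 of the 14 Affymetrix ATH1 arrays of the series, and all 22746 probe sets other than the controls were considered. Seedlings of wild type Col-0 had been moved from agar to liquid MS medium 1 day earlier, and hours were counted from time zero on day 6 after germination. The other arrays were untreated seedlings at 0 h (2 arrays) and seedlings given 50 µM of the compounds 7606596 or 5929745, known here by code name, for 12 h or 3 h (2 arrays per compound and time). None of the untreated seedlings received a compound, and the labels do not say whether they received its solvent. Each array carried RNA of pooled whole seedlings, so fewer cells of a type and less RNA per cell cannot be told apart. The labels give no clock hour of collection, so the time since time zero and the hour of the light and dark cycle cannot be told apart either.

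In plants, the circadian clock and the light and dark cycle set daily rhythms in the transcripts of clock genes, of photosynthesis and of starch metabolism. Starch is made in chloroplasts in the light and broken down at night, when phosphorylation of the glucan chains opens the granule surface to hydrolysing enzymes. Seedlings that run short of sugar raise genes for the breakdown of amino acids and of cell contents.

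Values are MAS5 signals in linear units. Changes are log2 differences of signal plus 16, 12 h minus 3 h, with the standard error of a limma fit over all arrays, and the word called marks an adjusted p under 0.05 in that fit. Median signals were 169 and 166 on the 12 h arrays, against 160.2 and 165 on the 3 h arrays. Hybridization controls, cRNAs added to the mix put on each array, averaged 10.45 and 10.51 on the log2 scale at 12 h, against 10.98 and 10.95 at 3 h. Poly-A controls, added to the RNA before labelling, averaged 7.21 and 7.26 at 12 h, against 7.16 and 7.14 at 3 h. On the 0 h arrays they averaged 6.12 and 5.58, and the part of this gap in the courses from 0 h was not tested. The 50 brightest probe sets held 7.05% and 6.43% of the summed signal at 12 h, against 8.48% and 8.61% at 3 h. The part of the hybridization controls in the results was not tested. Of the markers of tissues, RCA for leaf mesophyll (1 of 6 listed genes) was bright on all 4 arrays, EXPA7 and EXPA18 for root hairs (2 of 7) lay between 24.5 and 80.2, and SPCH and FMA for the stomatal lineage (2 of 6) lay between 141 and 386. No marker of flowers, vasculature or inner root tissue was named in the annotation.

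A large share of the transcriptome differed between 12 h and 3 h. Of 15922 probe sets bright enough to test, 5449 were called (34.2%), of which 2898 were higher at 12 h (18.2% of those tested) and 2551 were lower (16.0%). Calls with at least a 2-fold change numbered 605 higher (3.8%) and 590 lower (3.71%), and those with at least a 4-fold change 36 higher (0.226%) and 83 lower (0.521%). The median change over all tested probe sets was 0.016. The changes ran between -6.27 and 3.86, with both extremes on probe sets that the annotation does not tie to 1 gene. Leaving out 1 of the 4 arrays left between 3722 and 4298 calls, and 2739 probe sets (50.3% of the calls) were called in the same direction in every such fit. Among the 8738 tested probe sets tied to 1 gene, 32.3% were called, 17.7% higher and 14.5% lower.

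**Figure D1:**
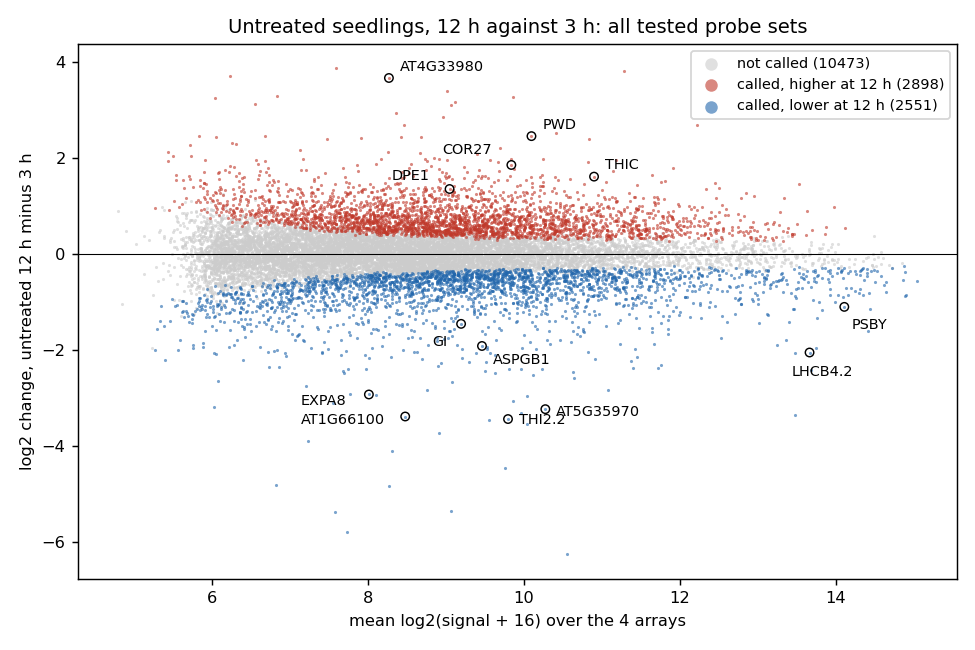
Log2 change of each tested probe set (12 h minus 3 h, vertical axis) against its mean log2 signal over the 4 arrays (horizontal axis). Red points are the 2898 probe sets called higher at 12 h and blue points the 2551 called lower. Circles mark genes described in the text, and calls occur over the whole range of signals.

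The evening genes of the circadian clock changed in opposite directions. Of 18 listed evening genes 3 were measured, and all 3 were called, 2 higher and 1 lower at 12 h, with a median change of 1.85 beside 0.016 over all tested probe sets. Of all tested probe sets 34.2% were called. None of the 12 listed morning genes was tied to a probe set by the annotation. AT4G33980, which was on the evening list, had signals of 1005 and 1166 on the 12 h arrays, against 69.5 and 72 on the 3 h arrays (log2 change 3.66 ± 0.20, adjusted p = 1.42e-10). It was the largest of the 12 rises chosen for size, and the 0 h arrays read 75 and 46.6, close to the 3 h arrays. COR27 (AT5G42900), a cold-responsive gene that acts as a repressor in the clock, gave 1651 and 1804 on the 12 h arrays, against 416 and 524 on the 3 h arrays (log2 change 1.85 ± 0.16, adjusted p = 6.25e-08). Its 12 h arrays lay above those of 3 h with no overlap, and also above the 0 h arrays, at 799 and 627. GI (AT1G22770), which codes for GIGANTEA, a clock protein that promotes flowering in long days, gave 386 and 295 on the 12 h arrays, against 1068 and 857 on the 3 h arrays (log2 change -1.46 ± 0.16, adjusted p = 1.16e-06). The 3 h arrays of GI were the high ones, since the 0 h arrays read 304 and 257, near the 12 h level.

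All 3 measured genes of the 25 on the starch list were called, 2 higher and 1 lower, while 34.2% of all tested probe sets were called. Their median was 1.35, beside 0.016 over all tested probe sets, and 0.39 with no filter, when 4 genes were measured. PWD (AT5G26570), the phosphoglucan, water dikinase that adds phosphate to glucans that already carry it during starch breakdown, had signals of 2532 and 2565 on the 12 h arrays, against 431 and 476 on the 3 h arrays (log2 change 2.45 ± 0.13, adjusted p = 9.59e-11). The mean was 5.62 times as high at 12 h, while the 0 h arrays read 476 and 376. DPE1 (AT5G64860), the plastid disproportionating enzyme that works on the short glucans left by starch breakdown, gave 814 and 843 on the 12 h arrays, against 347 and 287 on the 3 h arrays (log2 change 1.35 ± 0.14, adjusted p = 5.13e-07). It stood at 115 and 108 at 0 h, so that the 3 times were in ascending order without overlap. SBE2.2 (AT5G03650), a branching enzyme of starch synthesis, was lower at 12 h, at 1318 and 1204 at 12 h, against 1938 and 1845 at 3 h (log2 change -0.58 ± 0.15, adjusted p = 0.00519). Its call was lost when 1 array was left out, with an adjusted p of 0.0548 without 12 h replicate 2. ATSPS4F (AT4G10120), a sucrose phosphate synthase of the cytosol, was higher, at 665 and 754 at 12 h, against 283 and 273 at 3 h (log2 change 1.30 ± 0.16, adjusted p = 5.54e-06). PMM (AT2G45790), the phosphomannomutase of ascorbate synthesis, gave 2165 and 2105 at 12 h, against 804 and 818 at 3 h (log2 change 1.38 ± 0.12, adjusted p = 6.72e-08). ATSPS4F and PMM were chosen by size of change, a choice that required no overlap between the times.

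Of 18 listed sugar starvation genes 5 were measured, 4 were called lower and 0 higher, with a median of -0.71. The share called was 80.0%, beside 34.2% over all tested probe sets. AKINBETA1 (AT5G21170), a regulatory subunit of the SnRK1 energy-sensing kinase, had signals of 2512 and 2537 on the 12 h arrays, against 5189.7 and 5409.5 on the 3 h arrays (log2 change -1.06 ± 0.11, adjusted p = 5.42e-07). Its 12 h arrays lay below those of both earlier times, and the 0 h arrays read 4374 and 3908. MCCA, a subunit of methylcrotonyl-CoA carboxylase in leucine breakdown, gave 3193 and 3055 at 12 h, against 6198 and 5579.5 at 3 h (log2 change -0.91 ± 0.12, adjusted p = 9.06e-06). IVD, the isovaleryl-CoA dehydrogenase that acts just before it, gave 1906 and 2319 at 12 h, against 3575 and 3139.6 at 3 h (log2 change -0.67 ± 0.13, adjusted p = 0.000702). ETFQO, which passes electrons of such dehydrogenases to ubiquinone, gave 889 and 1092 at 12 h, against 1679.9 and 1555 at 3 h (log2 change -0.71 ± 0.12, adjusted p = 0.000218). All of these lay without overlap between the times, as did 67.3% of all tested probe sets. D2HGDH, a hydroxyglutarate dehydrogenase, did not pass the test (log2 change -0.34 ± 0.13, adjusted p = 0.0582). The 4 calls stood in every fit that left out 1 array.

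The falls of several genes with a known name are given next. They were chosen by size of change among genes with a name, a rule added after the values had been seen. ASPGB1 (AT3G16150), an asparaginase that frees ammonium from asparagine, had signals of 399 and 301 on the 12 h arrays, against 1416 and 1304 on the 3 h arrays (log2 change -1.92 ± 0.15, adjusted p = 1.24e-08). The 0 h arrays read 387 and 410.2, so the 3 h arrays stood alone as high. GAT1_2.1 (AT1G15040), a glutamine amidotransferase-like protein, gave 930.1 and 1029 on the 12 h arrays, against 2968 and 3058 on the 3 h arrays (log2 change -1.61 ± 0.13, adjusted p = 3.24e-08), with 2189.6 and 2103 at 0 h. AILP1 (AT5G19140), an aluminium-induced-like protein, gave 2185 and 2046 on the 12 h arrays, against 5905 and 6830.1 on the 3 h arrays (log2 change -1.58 ± 0.11, adjusted p = 4.26e-09), with 3703 and 3687 at 0 h. In both genes the 12 h arrays were the lowest of the 3 times. SFP2, a sugar transporter-like protein, gave 118 and 148 at 12 h, against 492 and 411 at 3 h (log2 change -1.65 ± 0.18, adjusted p = 1.06e-06).

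Genes of autophagy, glycosylation and protein processing were grouped by the prefix of their symbol. This grouping was made after the values had been seen, and 34 prefixes had at least 5 tested probe sets. Of the 8 ATG genes tested, most of them ATG8 proteins that coat autophagosomes, 4 were called lower and 1 higher, with a median of -0.44. ATG8F gave 3491 and 3633 at 12 h, against 6051 and 6178 at 3 h (log2 change -0.78 ± 0.12, adjusted p = 8.5e-05). ATG8E gave 1682 and 1785 at 12 h, against 2494 and 2615 at 3 h (log2 change -0.56 ± 0.14, adjusted p = 0.0042). ATG8D went the other way, at 719 and 813 at 12 h, against 416 and 360.5 at 3 h (log2 change 0.95 ± 0.14, adjusted p = 3.92e-05). The called ATG8 genes thus went in both directions. Of 31 UGT genes, which code for UDP-sugar glycosyltransferases, 9 were called higher and 2 lower, with a median of 0.23. Between 6 and 7 were called higher without 1 array, and 0 lower without 3 h replicate 1 or 12 h replicate 1. UGT71B1 gave 558 and 555 at 12 h, against 244 and 207 at 3 h (log2 change 1.25 ± 0.14, adjusted p = 2.31e-06). UGT74B1, which forms the glucosinolate core, gave 872 and 699 at 12 h, against 393 and 466 at 3 h (log2 change 0.84 ± 0.17, adjusted p = 0.000816), and UGT78D2, a flavonoid glucosyltransferase, gave 703 and 746 at 12 h, against 342 and 552 at 3 h (log2 change 0.72 ± 0.17, adjusted p = 0.00278). Of 14 SCPL genes, serine carboxypeptidase-like proteins, 5 were called higher and 1 lower. Without 1 array between 3 and 5 were called higher, the fewest without 3 h replicate 1, and 0 lower. scpl35 gave 546 and 561 at 12 h, against 129 and 131 at 3 h (log2 change 1.97 ± 0.16, adjusted p = 4.82e-08) and SCPL49 gave 2477 and 2179.97 at 12 h, against 729 and 797 at 3 h (log2 change 1.59 ± 0.15, adjusted p = 1.84e-07). The shares called among the UGT, ATG and SCPL genes were 35.5%, 62.5% and 42.9%, beside 34.2% over all tested probe sets.

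**Figure D2:**
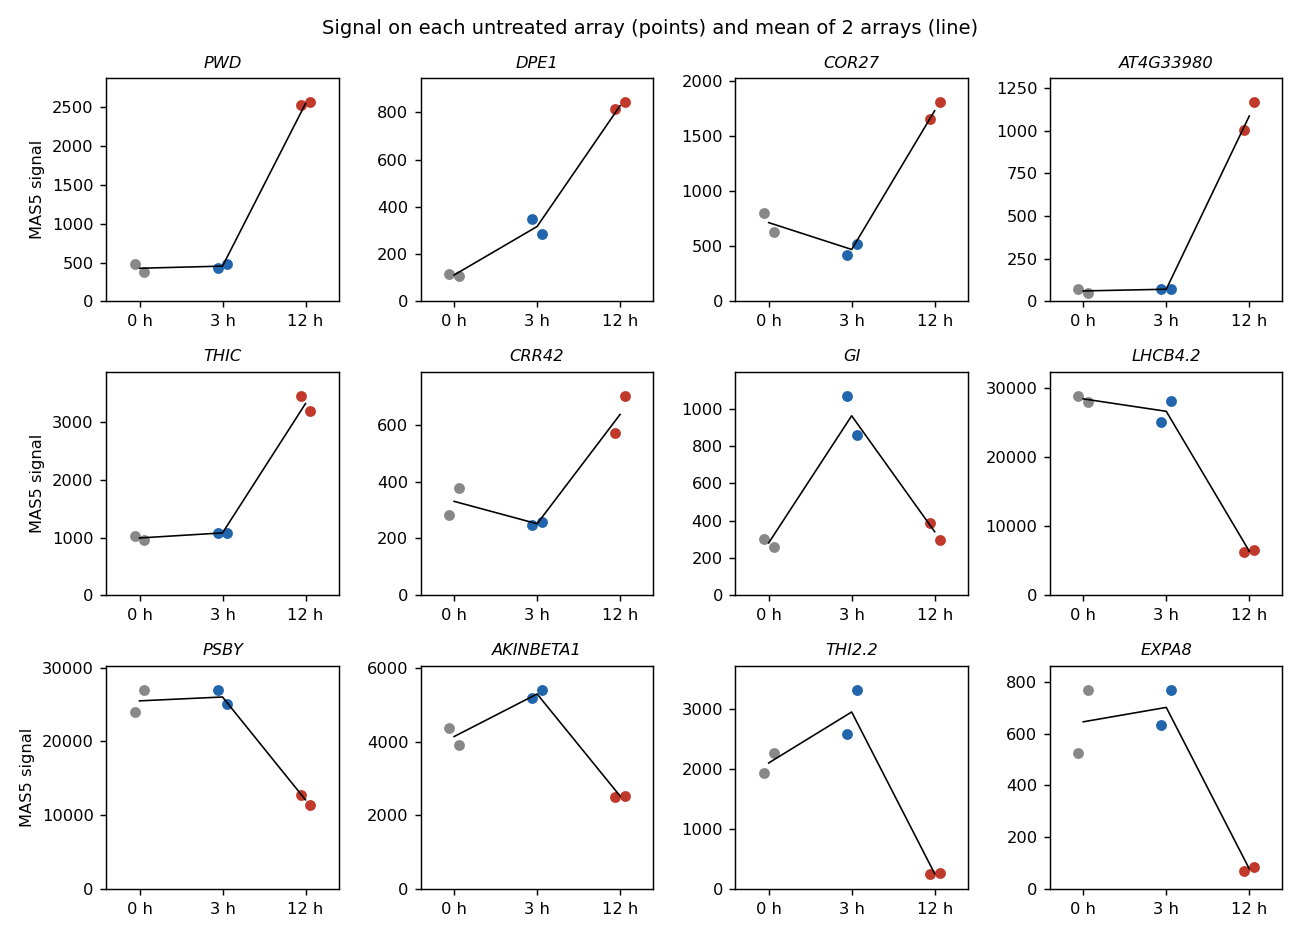
MAS5 signal on each untreated array at 0 h, 3 h and 12 h (points, 2 arrays per time) and the mean of the 2 arrays (line), with times evenly spaced and vertical axes that start at 0. PWD, COR27, AT4G33980, THIC and CRR42 were high at 12 h alone, DPE1 was in ascending order over the times, and GI was high at 3 h. LHCB4.2, PSBY, AKINBETA1, THI2.2 and EXPA8 were low at 12 h.

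Most measured nuclear genes of the photosynthetic apparatus were lower at 12 h. Of the light-harvesting list (22 genes, 3 measured) 2 were called lower and 0 higher (66.7% called, beside 34.2% over all tested probe sets). LHCB4.2 (AT3G08940), which codes for a form of CP29, the linker between antenna and photosystem II, had signals of 6248 and 6463 on the 12 h arrays, against 25066 and 28098 on the 3 h arrays (log2 change -2.06 ± 0.11, adjusted p = 9.59e-11). The mean was 4.18 times as high at 3 h. LHCB4.1, another form, gave 20829 and 18298 on the 12 h arrays, against 32733 and 35266 on the 3 h arrays (log2 change -0.80 ± 0.097, adjusted p = 4.78e-06). LHCB4.3, the third form, did not pass the test (log2 change 0.15 ± 0.19, adjusted p = 0.589). All 5 measured genes of the photosystem list (29 genes), which also holds ATPC1 of the ATP synthase, were called lower. Their median was -0.73, and 16.0% of all tested probe sets were called lower. With no filter or with no variance trend, 4 of the 5 were called lower. PSBY, a small subunit of photosystem II, gave 12776 and 11367 at 12 h, against 26958 and 25072 at 3 h (log2 change -1.11 ± 0.10, adjusted p = 1.19e-07). PSAN, a lumenal subunit of photosystem I, gave 11685 and 11321 at 12 h, against 20189 and 21749 at 3 h (log2 change -0.86 ± 0.098, adjusted p = 2.08e-06). PSAE-1 and PSBW, subunits of photosystem I and II, changed by -0.73 and -0.69, and ATPC1, the gamma subunit of the ATP synthase, by -0.30. In the Calvin cycle list (19 genes, 3 measured) RCA, the activase of Rubisco, gave 22202 and 19938 at 12 h, against 31214 and 31911 at 3 h (log2 change -0.58 ± 0.099, adjusted p = 0.000169), and PRK, phosphoribulokinase, gave 12076 and 11576 at 12 h, against 15669 and 16889.5 at 3 h (log2 change -0.46 ± 0.11, adjusted p = 0.00421). The third measured gene, SBPASE, did not pass (log2 change -0.21 ± 0.12, adjusted p = 0.194). TRXF2, a thioredoxin that activates Calvin cycle enzymes in the light, gave 1271 and 1289 at 12 h, against 2932 and 3256 at 3 h (log2 change -1.26 ± 0.12, adjusted p = 1.49e-07).

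Part of this group was sensitive to scaling, and its signals were among the brightest on the arrays. Of the 100 brightest tested probe sets, 91 were below 0 with the scaling as deposited (median -0.36) and 43 with quantile normalization (median 0.035). With quantile normalization LHCB4.2 changed by -1.83, PSBY by -0.79, PSAN by -0.53 and LHCB4.1 by -0.38, and all 4 were called. RCA changed by -0.19 and PRK by -0.20 with that scaling and were not called, and ATPC1 changed sign to 0.068. Of the light-harvesting genes 2 and of the photosystem subunits 4 were called lower with either scaling.

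**Figure D3:**
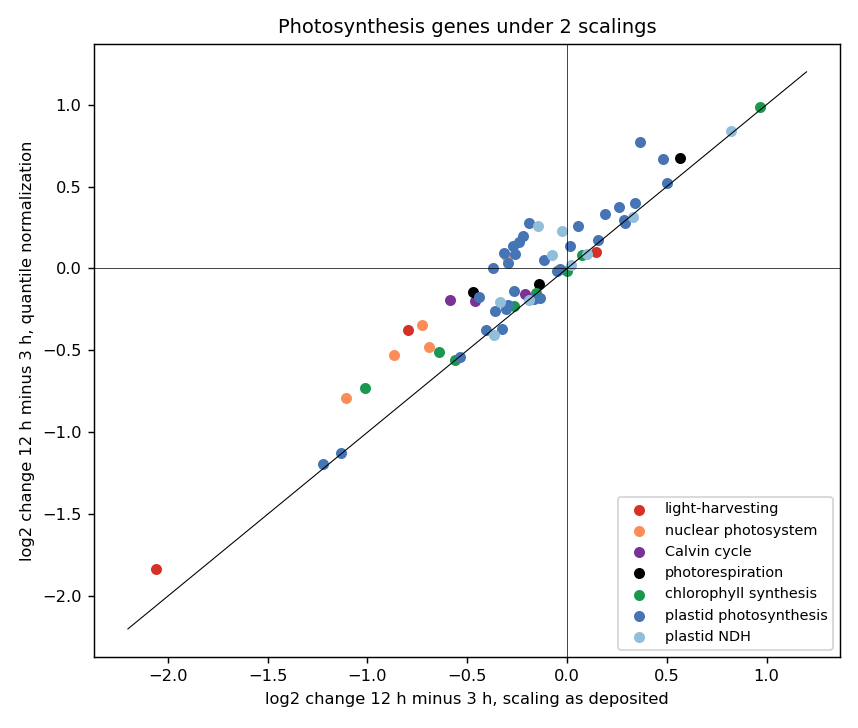
Log2 change (12 h minus 3 h) of photosynthesis genes with the scaling as deposited (horizontal axis) and after quantile normalization (vertical axis), coloured by list, with a line of equal change. Most points lie above the line and LHCB4.2 stays the lowest at -2.06 and -1.83.

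The chlorophyll synthesis genes went both ways. Of 27 listed genes 8 were measured, 1 was called higher and 3 lower (50.0% called, beside 34.2% over all tested probe sets), with a median of -0.21. GSA1 (AT5G63570), the glutamate-1-semialdehyde aminomutase that forms aminolevulinate, the precursor of all tetrapyrroles, gave 1699 and 2269 at 12 h, against 901 and 1102 at 3 h (log2 change 0.97 ± 0.18, adjusted p = 0.000445). HEME1, a uroporphyrinogen decarboxylase, gave 1412 and 1403 at 12 h, against 1858 and 2345 at 3 h (log2 change -0.56 ± 0.12, adjusted p = 0.00177). CHLM, the magnesium protoporphyrin IX methyltransferase, gave 7069 and 7736 at 12 h, against 12248 and 10872 at 3 h (log2 change -0.64 ± 0.12, adjusted p = 0.000475). AT1G74470, which was on the chlorophyll list, gave 9719.98 and 10099.7 at 12 h, against 19819 and 20117 at 3 h (log2 change -1.01 ± 0.091, adjusted p = 1.18e-07). HEME2, PORB, CHLI2 and HEMB1 did not pass, with changes between -0.27 and 0.076. The list kept 1 higher and 3 lower calls with quantile normalization.

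Of 34 photosynthesis genes of the plastid, all measured, 2 were called higher and 7 lower (26.5% called, beside 34.2% over all tested probe sets), with a median of -0.21. psbB, which codes for the CP47 antenna protein of photosystem II, had signals of 2181 and 2209 on the 12 h arrays, against 5083 and 5206 on the 3 h arrays (log2 change -1.22 ± 0.12, adjusted p = 2.74e-07). psbD, which codes for the D2 protein of the reaction centre, gave 989.8 and 1114 on the 12 h arrays, against 2324 and 2315 on the 3 h arrays (log2 change -1.13 ± 0.17, adjusted p = 5.53e-05). Both were in descending order over the 3 times, since the 0 h arrays read 13718 and 10291 for psbB and 6208 and 4701 for psbD. psbC, which codes for the CP43 antenna protein and is transcribed with psbD, gave 2779 and 2888 at 12 h, against 4015 and 4209 at 3 h (log2 change -0.53 ± 0.14, adjusted p = 0.00778), and its adjusted p was 0.0521 without 3 h replicate 2 and 0.0562 without 12 h replicate 1. psbA, which codes for the D1 protein, was higher at 14098 and 10502 at 12 h, against 9714 and 7812 at 3 h (log2 change 0.48 ± 0.13, adjusted p = 0.00956). petG, a small subunit of the cytochrome b6f complex, was higher too (log2 change 0.50 ± 0.15, adjusted p = 0.0151). rbcL, the large subunit of Rubisco, did not pass (log2 change 0.16 ± 0.14, adjusted p = 0.433). With quantile normalization the median of the list turned to 0.071, with 6 called higher and 3 lower, so no direction held for the list under both scalings. Without 1 of the 4 arrays between 3 and 8 genes were called lower, and between 0 and 2 higher, with 0 without 12 h replicate 1.

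Of 10 measured plastid genes of the NDH complex, which carries electrons around photosystem I, 1 was called higher and 1 lower. ndhJ gave 2846 and 2519 at 12 h, against 1649 and 1375 at 3 h (log2 change 0.82 ± 0.14, adjusted p = 0.000176), and ndhC gave 8384 and 7598 at 12 h, against 9988 and 10179 at 3 h (log2 change -0.34 ± 0.11, adjusted p = 0.0229). The ndhC call was lost under several alternatives, with an adjusted p of 0.14 with quantile normalization, 0.0645 with no variance trend, 0.0727 without 3 h replicate 1, 0.0954 without 3 h replicate 2 and 0.174 without 12 h replicate 2. Of 22 measured plastid genes for transcription, translation and protein turnover, 3 were called higher and 3 lower (27.3% called), with a median of 0.070. The higher calls numbered 5 with quantile normalization and 1 with no filter, with no variance trend, without 3 h replicate 2 or without 12 h replicate 1, and the lower calls 1 without 3 h replicate 1. rpl36, a ribosomal protein, gave 3032 and 2729 at 12 h, against 5712 and 4693 at 3 h (log2 change -0.84 ± 0.17, adjusted p = 0.00096), and rpoB, a subunit of the plastid RNA polymerase, gave 310.3 and 295 at 12 h, against 569 and 431 at 3 h (log2 change -0.68 ± 0.17, adjusted p = 0.00399). rps15, another ribosomal protein, was higher at 2222 and 2220.4 at 12 h, against 1668 and 1222 at 3 h (log2 change 0.63 ± 0.16, adjusted p = 0.00487). The adjusted p was 0.075 without 3 h replicate 1 for rpoB and 0.101 without 3 h replicate 2 for rps15. rps14 was lower at 140.1 and 80.4 at 12 h, against 287 and 188 at 3 h (log2 change -1.02 ± 0.29, adjusted p = 0.0106), a call lost without 1 array, with an adjusted p of 0.135 without 3 h replicate 1 and 0.159 without 12 h replicate 2. Of 18 mitochondrial probe sets 3 were called higher and 1 lower, and 0 higher without 12 h replicate 1. The share called in each of these plastid and mitochondrial groups was below the 34.2% over all tested probe sets.

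All 5 tested CRR genes, which code for proteins needed to make the plastid NDH complex, several of them RNA-editing pentatricopeptide repeat proteins, were called higher, with a median of 0.78. Over all tested probe sets 34.2% were called, 18.2% higher. The CRR genes, and the OTP and NRPB genes below, were grouped by symbol prefix after the values had been seen. Of the 34 such groups, 3 had 0 called. CRR42 gave 573 and 702 at 12 h, against 246 and 258 at 3 h (log2 change 1.28 ± 0.18, adjusted p = 2.99e-05). CRR22, which edits plastid transcripts, gave 179.6 and 173 at 12 h, against 73 and 96.2 at 3 h (log2 change 0.95 ± 0.22, adjusted p = 0.00299). CRR41, CRR21 and CRR28 changed by 0.78, 0.67 and 0.62. The 2 arrays of each time did not overlap in any CRR gene, as in 67.3% of all tested probe sets. Between 3 and 5 of these genes were called when 1 array was left out. OTP81, another pentatricopeptide repeat protein of organelles, gave 282 and 261 at 12 h, against 94.1 and 32 at 3 h (log2 change 1.98 ± 0.31, adjusted p = 8.36e-05), and OTP84 gave 214 and 195 at 12 h, against 85.6 and 105 at 3 h (log2 change 0.99 ± 0.25, adjusted p = 0.00485). Of the 6 OTP genes tested 2 were called higher and 0 lower (33.3% called, beside 34.2% over all tested probe sets), and 4 higher with no variance trend. Cpn60beta4, PPR596 and MAP1C were chosen by size of change. Cpn60beta4 (AT1G26230), a subunit of the plastid chaperonin needed to assemble the NDH complex, gave 627 and 716 on the 12 h arrays, against 253 and 241 on the 3 h arrays (log2 change 1.38 ± 0.17, adjusted p = 4.51e-06). PPR596, a mitochondrial pentatricopeptide repeat protein, gave 537 and 502 at 12 h, against 220.1 and 181 at 3 h (log2 change 1.31 ± 0.19, adjusted p = 3.19e-05). MAP1C, a methionine aminopeptidase of organelles, gave 1725 and 1814 at 12 h, against 674 and 654 at 3 h (log2 change 1.39 ± 0.11, adjusted p = 2.79e-08). No overlap between 12 h and 3 h was a condition for the choice of Cpn60beta4, PPR596 and MAP1C.

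Outside the organelles, 4 of 5 tested NRPB genes, which code for subunits of RNA polymerase II, some shared with related polymerases, were called higher, with a median of 0.65. The share called was 80.0%, beside 34.2% over all tested probe sets, in a group formed after the values had been seen. NRPB7 gave 386 and 372 at 12 h, against 172 and 175 at 3 h (log2 change 1.06 ± 0.15, adjusted p = 2.93e-05). NRPB9B gave 209 and 209 at 12 h, against 129 and 98.2 at 3 h (log2 change 0.80 ± 0.27, adjusted p = 0.0279), and NRPB6A did not pass (log2 change 0.29 ± 0.13, adjusted p = 0.0804). Leaving out 1 array left 3 of the 5 called in each fit. TUB9, a beta-tubulin, gave 3015 and 3034 at 12 h, against 1228 and 1330.1 at 3 h (log2 change 1.23 ± 0.11, adjusted p = 1.85e-07). TUB6, TUB7 and TUB1 did not pass, and of the 5 TUB genes tested 2 were called higher and 0 lower (40.0% called). AT5G14520, the measured gene of the ribosome biogenesis list, gave 2449 and 2349 at 12 h, against 1321 and 1635 at 3 h (log2 change 0.70 ± 0.14, adjusted p = 0.000762).

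Other rises were chosen by the same rule of size. THIC (AT2G29630), which makes the pyrimidine part of thiamin in the chloroplast, had signals of 3457 and 3197 on the 12 h arrays, against 1079 and 1081 on the 3 h arrays (log2 change 1.61 ± 0.13, adjusted p = 4.5e-08). The 0 h arrays of THIC read 1025 and 960.3, close to the 3 h level. PDC2, a pyruvate decarboxylase, which uses thiamin diphosphate, gave 1493 and 1609 on the 12 h arrays, against 569 and 584 on the 3 h arrays (log2 change 1.40 ± 0.14, adjusted p = 5.82e-07). CHL (AT3G47860), a lipocalin of the chloroplast, gave 3849.8 and 3279 on the 12 h arrays, against 1121 and 1385 on the 3 h arrays (log2 change 1.499 ± 0.15, adjusted p = 3.4e-07), with 864 and 871 at 0 h. The 12 h arrays were the highest of the 3 times in all of these genes.

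Part of the cell wall loosening list was lower at 12 h. Of 34 listed genes 11 were measured, and 6 were called lower and 0 higher (54.5% called, beside 34.2% over all tested probe sets), with a median of -0.50. EXPA8 (AT2G40610), an expansin, which loosens cell walls in growing tissue, had signals of 70.7 and 84.7 on the 12 h arrays, against 634 and 769 on the 3 h arrays (log2 change -2.93 ± 0.18, adjusted p = 7.29e-10). The mean was 9.03 times as high at 3 h, and the 0 h arrays read 523 and 768. XTH18, a xyloglucan endotransglucosylase, gave 71.4 and 63.1 at 12 h, against 283 and 384 at 3 h (log2 change -2.06 ± 0.23, adjusted p = 2.1e-06). EXLA1, an expansin-like protein, gave 499 and 479 at 12 h, against 1028 and 1070.3 at 3 h (log2 change -1.08 ± 0.15, adjusted p = 1.9e-05), and EXPB3, a beta-expansin, gave 83.2 and 68 at 12 h, against 169 and 151 at 3 h (log2 change -0.94 ± 0.21, adjusted p = 0.002). Of the 8 EXPA genes tested, some from outside the list, EXPA8 alone was called (12.5%). Their median was -0.075, with 4 above 0 and 4 below. XTH16 and EXLA2 were the other called members of the list, and XTH33, XTH19, EXPA4, EXPA15 and EXPA9 did not pass. Without 1 array 4 members were called lower in each fit. Among 5 tested XTH genes, which include XTH32 from outside the list, 3 were called lower, and between 1 and 2 without 1 array.

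The early auxin list had 5 measured genes of 33, of which 2 were called lower and 0 higher (40.0% called, beside 34.2% over all tested probe sets). WES1 (AT4G27260), a GH3 enzyme that conjugates auxin to amino acids, gave 779 and 737 at 12 h, against 1452 and 1627 at 3 h (log2 change -1.01 ± 0.12, adjusted p = 3.2e-06). GH3.3, a related enzyme, gave 57.1 and 57.7 at 12 h, against 118 and 139 at 3 h (log2 change -0.97 ± 0.28, adjusted p = 0.0114), and its adjusted p was 0.0747 without 3 h replicate 2, 0.055 without 12 h replicate 1 and 0.0509 without 12 h replicate 2. PSY1R, the receptor-like kinase tied to the growth peptide PSY1, gave 422 and 401 at 12 h, against 968 and 1043 at 3 h (log2 change -1.26 ± 0.14, adjusted p = 1.39e-06). Of the mitotic list (21 genes, 3 measured, 66.7% called) the Aurora kinases AUR1 and AUR2, which act on histones in dividing cells, were called lower. AUR1 gave 90.1 and 96.3 at 12 h, against 189.7 and 169 at 3 h (log2 change -0.84 ± 0.19, adjusted p = 0.00176). AUR2 gave 117 and 122 at 12 h, against 163 and 246 at 3 h (log2 change -0.68 ± 0.20, adjusted p = 0.0155), with an adjusted p of 0.217 without 3 h replicate 2, 0.0788 without 12 h replicate 1 and 0.0551 without 12 h replicate 2. AUR3 did not pass (log2 change -0.46 ± 0.29, adjusted p = 0.234). In the DNA replication list PRL, a component of the replication licensing complex, was higher at 287 and 249 at 12 h, against 189 and 142 at 3 h (log2 change 0.66 ± 0.19, adjusted p = 0.0115), and its adjusted p was 0.132 without 3 h replicate 2 and 0.099 without 12 h replicate 1.

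The falls chosen for size began with THI2.2 (AT5G36910), a thionin, a small antimicrobial peptide. It had signals of 242 and 266 on the 12 h arrays, against 2579 and 3314 on the 3 h arrays (log2 change -3.45 ± 0.18, adjusted p = 6.24e-11), with 1932 and 2263 at 0 h. The 3 h mean was 11.6 times as high as that of 12 h. AT1G66100, named by locus in the annotation, gave 108 and 81.7 at 12 h, against 925 and 1405 at 3 h (log2 change -3.39 ± 0.19, adjusted p = 2.15e-10), and AT5G35970 gave 389.9 and 385 at 12 h, against 3594 and 4015 at 3 h (log2 change -3.24 ± 0.13, adjusted p = 3.63e-12). The 12 h arrays were low against both earlier times in these genes. AT3G13760, AT5G43520 and AT5G48430 had another course, as their 3 h arrays were above those of 0 h. AT3G13760 gave 33 and 49.2 at 12 h, against 367 and 369 at 3 h (log2 change -2.76 ± 0.20, adjusted p = 5.9e-09), with 111 and 100.05 at 0 h. AT5G48430 gave 416 and 419.9 at 12 h, against 2251 and 2335 at 3 h (log2 change -2.41 ± 0.20, adjusted p = 3.53e-08), with 571 and 359.9 at 0 h. AT1G55960 was in descending order over the 3 times, with 352 and 399.96 at 12 h, against 2085 and 2005 at 3 h (log2 change -2.40 ± 0.12, adjusted p = 2.77e-11) and 4987 and 4874 at 0 h. CYP71B26, a cytochrome P450, gave 387 and 388 at 12 h, against 1126 and 1319 at 3 h (log2 change -1.61 ± 0.15, adjusted p = 2.15e-07). Of the 12 falls chosen for size, AT3G53980, AT1G69570, AT1G73480 and AT5G16030 changed by -2.92, -2.44, -2.41 and -2.40.

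Among the rises chosen for size, AT4G16146 gave 851 and 944 at 12 h, against 134 and 79 at 3 h (log2 change 2.94 ± 0.18, adjusted p = 8.38e-10), with 31.9 and 37.8 at 0 h. AT4G34950 gave 3536 and 2981 at 12 h, against 601 and 509.9 at 3 h (log2 change 2.52 ± 0.16, adjusted p = 8.26e-10), with 80.7 and 94.1 at 0 h. Both were in ascending order over the 3 times without overlap. AT4G12830 and AT1G62780 had their lowest arrays at 3 h. AT4G12830 gave 826 and 838 at 12 h, against 187 and 213 at 3 h (log2 change 1.98 ± 0.22, adjusted p = 1.74e-06), with 528 and 496 at 0 h, and AT1G62780 gave 1437 and 1537 at 12 h, against 446 and 307 at 3 h (log2 change 1.96 ± 0.18, adjusted p = 1.26e-07), with 677 and 662 at 0 h. AT5G58570, AT3G16530, AT3G04550, AT2G43550 and AT5G51440 changed by 2.08, 1.98, 1.97, 1.93 and 1.87.

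Of 11 tested BZIP transcription factors 5 were called lower and 0 higher (45.5% called, beside 34.2% over all tested probe sets), with a median of 0.00048. BZIP61 gave 344 and 365 at 12 h, against 775 and 909 at 3 h (log2 change -1.21 ± 0.17, adjusted p = 2.01e-05), BZIP34 changed by -1.29 and bZIP58 by -1.01, while BZIP28, tied to the unfolded protein response, changed by -0.52. Between 2 and 3 were called lower without 1 array. BPC1, a GAGA-binding factor, gave 283 and 213 at 12 h, against 563 and 539 at 3 h (log2 change -1.12 ± 0.14, adjusted p = 9.24e-06). HYH, a homologue of the light-signalling factor HY5, was higher at 483 and 580.3 at 12 h, against 336 and 379.96 at 3 h (log2 change 0.55 ± 0.14, adjusted p = 0.0052), with an adjusted p of 0.054 without 3 h replicate 1 and 0.0848 without 12 h replicate 2. None of the 4 measured genes of the abscisic acid and cold list was called, and their changes lay between 0.13 for COR47 and 0.61 for COR15B. STZ and WRKY53, early stress factors, changed by 0.13 and -0.04 and were not called. AER, an alkenal reductase, was higher at 1609.9 and 1602 at 12 h, against 898 and 813 at 3 h (log2 change 0.90 ± 0.13, adjusted p = 3.85e-05), and AT2G21640, on the same redox list, gave 255 and 162 at 12 h, against 98.3 and 60.6 at 3 h (log2 change 1.23 ± 0.28, adjusted p = 0.0021), with an adjusted p of 0.053 without 12 h replicate 1. ICL, the isocitrate lyase of the glyoxylate cycle, a marker of seed reserves, was lower at 1397 and 1564 at 12 h, against 2348 and 2398 at 3 h (log2 change -0.68 ± 0.23, adjusted p = 0.0309), with an adjusted p of 0.078 with no filter, 0.0939 with no variance trend, 0.0976 without 3 h replicate 1, 0.111 without 3 h replicate 2, 0.158 without 12 h replicate 1 and 0.0707 without 12 h replicate 2.

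**Figure D4:**
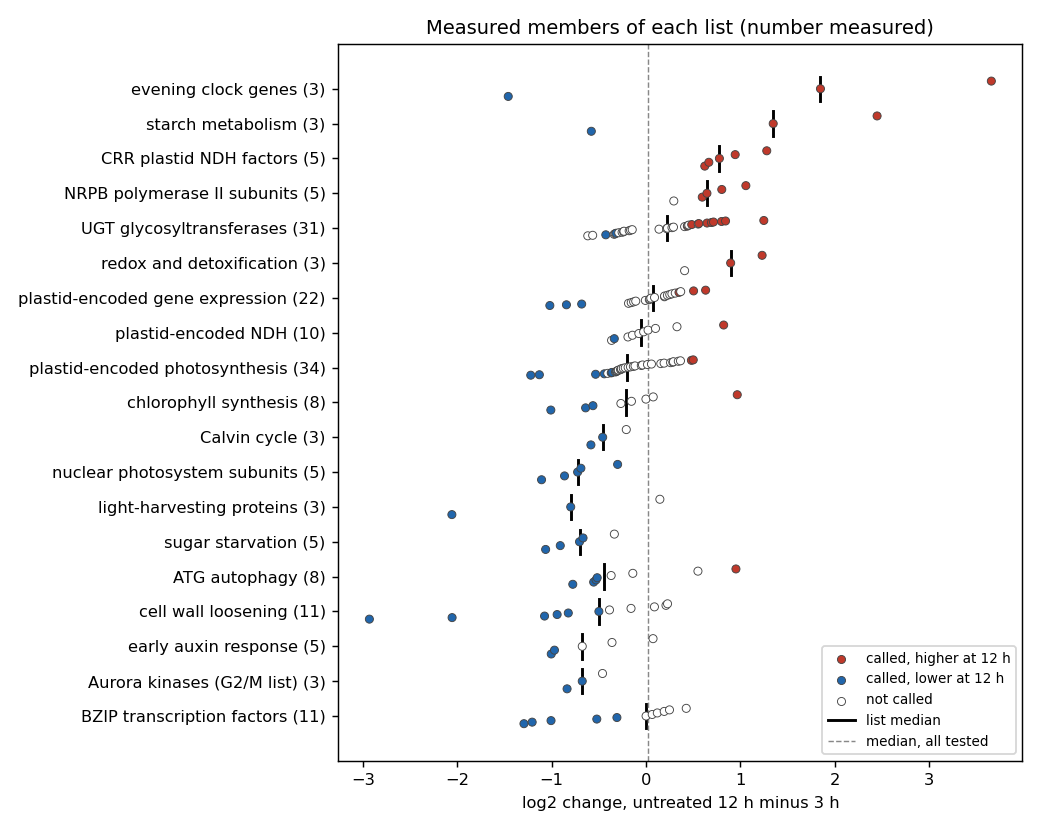
Log2 change (12 h minus 3 h) of each measured member of a list (points), with the list median (black bar) and the median over all tested probe sets (dashed line, 0.016). Red points were called higher at 12 h, blue points lower, and open points were not called. The starch and CRR rows lie mostly to the right, the sugar starvation and photosystem rows to the left, and the BZIP row has called points on the lower side with a median near 0.

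The glucosinolate list had 3 measured genes of 25, and all 3 were called, beside 34.2% over all tested probe sets. AT2G31790 and UGT74B1 were called higher and BCAT4, a transaminase of methionine chain elongation, lower. AT2G31790 gave 906 and 914 at 12 h, against 497 and 537 at 3 h (log2 change 0.80 ± 0.13, adjusted p = 0.000125). BCAT4 gave 40 and 36.1 at 12 h, against 63.5 and 179 at 3 h (log2 change -1.21 ± 0.35, adjusted p = 0.0127), with an adjusted p of 0.269 without 3 h replicate 2 and 0.0667 without 12 h replicate 2. On the photorespiration list (12 genes, 3 measured) HPR, the peroxisomal hydroxypyruvate reductase, was lower at 13579.5 and 13465 at 12 h, against 17706 and 19836 at 3 h (log2 change -0.47 ± 0.12, adjusted p = 0.0038), with an adjusted p of 0.39 with quantile normalization and 0.0537 without 3 h replicate 2. AT1G11860, on the same list, was higher at 9654 and 9355 at 12 h, against 7173 and 5752 at 3 h (log2 change 0.56 ± 0.15, adjusted p = 0.00627), with an adjusted p of 0.1 without 3 h replicate 2.

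The same change of time was measured in compound-treated seedlings, with group means from other arrays, although all arrays share the filter and the estimate of the spread. With 7606596, 26.5% of the probe sets were called between 12 h and 3 h, and with 5929745, 25.4%. Of the 5449 probe sets called in untreated seedlings, 3051 (56.0%) were called in the same direction with 7606596, which is 72.4% of the calls with it. With 5929745, 2969 (54.5%) were, which is 73.5% of the calls with that compound. Opposite calls numbered 15 with 7606596 and 18 with 5929745. In all 3 comparisons 2411 probe sets (44.2% of the untreated calls) were called in the same direction. Across the 15922 probe sets, which share arrays and are not independent, the untreated changes correlated with those of 7606596 at r = 0.80 and with those of 5929745 at r = 0.79. All 12 rises and 12 falls chosen for size were called the same way with each compound. PWD changed by 2.45 in untreated seedlings, 2.53 with 7606596 and 2.11 with 5929745. THI2.2 changed by -3.45, -3.66 and -3.42 in the same order, and LHCB4.2 by -2.06, -2.03 and -1.96.

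**Figure D5:**
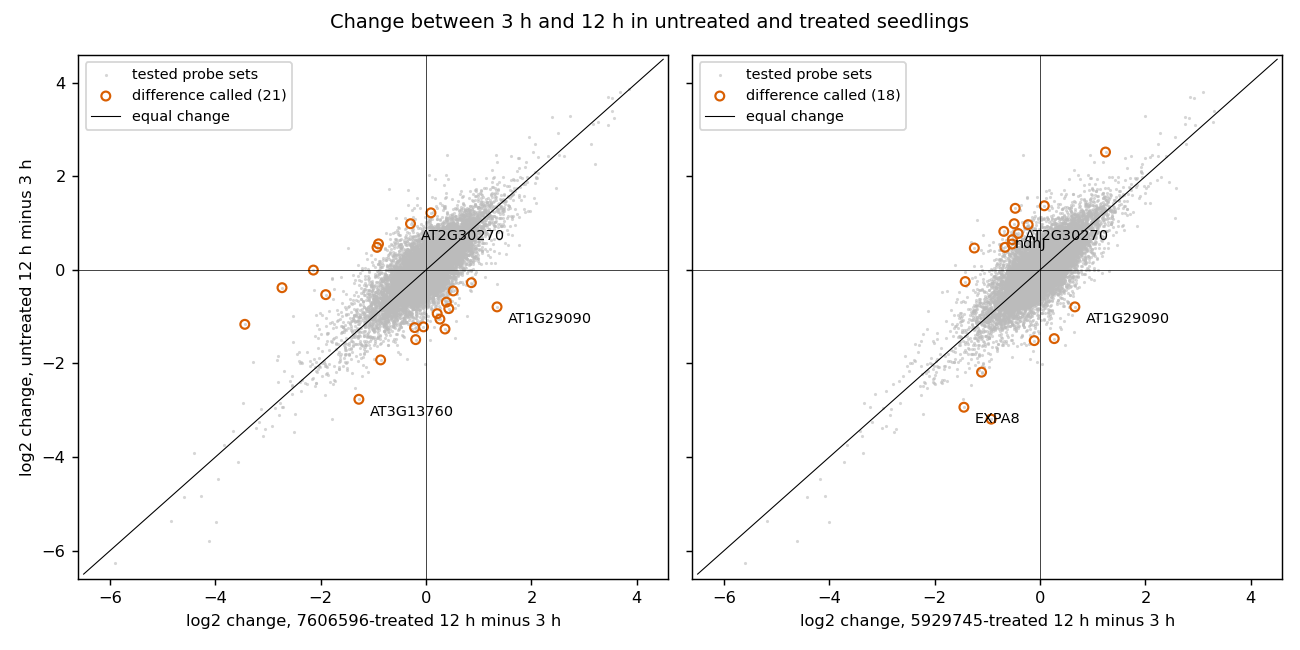
Log2 change between 12 h and 3 h in untreated seedlings (vertical axis) against the same change with 7606596 (left) or 5929745 (right), for 15922 tested probe sets, with a line of equal change. Orange circles are the 21 and 18 probe sets whose change differed between untreated and treated seedlings, most of them off the line by more than 1 log2 unit.

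Whether the change between the times differed between untreated and treated seedlings was tested probe set by probe set. The test called 21 probe sets against 7606596 (0.132%) and 18 against 5929745 (0.113%), and 3 were called against both. Of the 21, 15 were tied to 1 gene, and of the 18, 15 were. These 3 were AT1G29090, AT2G30270 and AT5G19240, which were chosen after the values had been seen and are named by locus in the annotation. AT1G29090 gave 385 and 376 at 12 h, against 563 and 795 at 3 h in untreated seedlings. With 7606596 it gave 181 and 211 at 12 h, against 59.7 and 75.5 at 3 h (difference -2.14 ± 0.26, adjusted p = 0.0014), and with 5929745 1016 and 933 at 12 h, against 749 and 496 at 3 h (difference -1.45 ± 0.26, adjusted p = 0.0335). Within each condition, the 12 h arrays of AT1G29090 lay below those of 3 h in untreated seedlings and above them with either compound. AT2G30270 gave 390.2 and 361 at 12 h, against 204 and 162 at 3 h in untreated seedlings, with the 3 h arrays the low ones. With 7606596 it gave 369.8 and 437 at 12 h, against 539 and 459 at 3 h (difference 1.28 ± 0.21, adjusted p = 0.0142), and with 5929745 367 and 317 at 12 h, against 483 and 489.6 at 3 h (difference 1.48 ± 0.21, adjusted p = 0.00649). The 0 h arrays of AT2G30270 read 441 and 465, nearer to the treated levels than to the untreated level at 3 h. The poly-A controls of the 0 h arrays (6.12 and 5.58) also lay nearer to those of the treated arrays, and their part was not tested. AT5G19240 gave 502 and 592 at 12 h, against 443 and 336 at 3 h in untreated seedlings, 381 and 358 at 12 h, against 693 and 746 at 3 h with 7606596 and 313 and 325 at 12 h, against 480.01 and 555 at 3 h with 5929745. The signs of its change were opposite in untreated and treated seedlings.

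Among the genes and groups described above, ndhJ, EXPA8, CRR41, NRPB6B and AT4G34950 differed against 5929745, and AT3G13760 and ASPGB1 against 7606596. ndhJ was higher at 12 h than at 3 h in untreated seedlings. Its untreated 3 h arrays were the low ones, as the untreated 0 h arrays read 3675 and 2862. With 5929745 it gave 2182 and 2088 at 12 h, against 3860.5 and 3084 at 3 h (difference 1.51 ± 0.20, adjusted p = 0.00343). EXPA8 fell under both conditions but gave 145 and 175 at 12 h, against 479.6 and 445 at 3 h with 5929745 (difference -1.49 ± 0.26, adjusted p = 0.0259). Its 12 h arrays with 5929745 stood above the untreated 12 h arrays. ASPGB1 gave 382 and 375 at 12 h, against 628 and 783 at 3 h with 7606596 (difference -1.06 ± 0.21, adjusted p = 0.0495). The poly-A controls of the 4 untreated arrays at 12 h and 3 h were higher than those of the treated arrays, which averaged between 5.63 and 6.18. Hybridization controls changed by -0.49 log2 units between 3 h and 12 h in untreated seedlings. Their change was -0.015 with 7606596 and -0.016 with 5929745. The part of either kind of control in these differences was not tested. The number of such calls varied with the settings, and limma called 0 without the variance trend. In the fit with the trend, 1767 probe sets against 7606596 and 1816 against 5929745 had an unadjusted p under 0.05.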

How the data were processed

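Transcript levels of whole Arabidopsis seedlings were measured on 14 ATH1 arrays in 7 groups of 2, and the untreated seedlings at 12 h were compared with those at 3 h. The deposited values are signal intensities that the authors made with MAS5, per the submitters' processing notes, which give no version. MAS5 corrects the background and scales each array on its own. After 64 control probe sets had been removed from 22810, those whose signal averaged 42.3 or more across the arrays (the 30th percentile) were tested, 15922 in number. Log2 of the signal plus 16 was fitted with limma 3.58.1 (lmFit, and eBayes with a variance trend; R 4.3.3), using 1 mean for each of the 7 groups, so that all arrays share the estimate of the spread. Tests were two-sided with Benjamini-Hochberg adjustment over the tested probe sets. The offset makes log2 changes of weak signals smaller than the ratio of means.

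The annotation tied 13513 probe sets to 1 gene, 503 to several and 8730 to none. RefSeq (TAIR10.1) matched 13436 of those with 1 gene and gave the symbols. Named genes are the 12 largest rises and 12 largest falls among called probe sets of 1 gene without overlap between the times and with a higher group mean of at least 358. Up to 4 called members of each list with the smallest adjusted p, and every measured clock gene, were also named. Large changes among genes with a symbol, and groups by symbol prefix, were added after the values had been seen. The members and lists were chosen with earlier results of these data known.

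The labels describe 2 independent sets. The p-values rest on the spread between arrays of the same group, pooled over all 7 groups and drawn toward the variance trend. With 2 arrays per group, the number of arrays limits the precision. Tested on data simulated for untreated 12 h against 3 h over 15922 probe sets, the fit found 31 of 67 changes of 1.5-fold, 57 of 67 of 2-fold and 66 of 66 of 4-fold, and 10 of its 164 calls were false. Only these probe sets were changed, with independent normal noise of the fitted spread, while 34.2% were called in the data. The simulated rates therefore do not carry over to the 5449 calls. Alternatives varied the offset, the filter, the scaling, the variance model, the arrays in the fit and a replicate block.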

Additional observations from a re-analysis of the deposited data

Results flagged for a closer look

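The change between 12 h and 3 h differed between untreated and compound-treated seedlings, by the test of the difference itself, for 13 pairs of a gene and a compound that the text names. Values are the untreated change minus the treated change on the log2 scale. Each was recomputed under 14 alternatives, and the number in which it was still called is given beside it.

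Against 7606596, AT1G29090 differed by -2.14 and AT5G19240 by 1.41, each still called in 13 alternatives. AT2G30270 differed by 1.28 and was still called in 8. AT3G13760 differed by -1.49 (still called in 3) and ASPGB1, an asparaginase, by -1.06 (still called in 2). Both of these fell at 12 h with and without the compound.

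Against 5929745, ndhJ, a plastid-encoded NDH subunit, differed by 1.51 and was still called in 13 alternatives, and AT2G30270 differed by 1.48 and was still called in 11. EXPA8, an expansin, differed by -1.49, AT4G34950 by 1.28, AT5G19240 by 1.15, CRR41 by 1.19 and AT1G29090 by -1.45, each still called in 6. NRPB6B, an RNA polymerase II subunit, differed by 1.17 and was still called in 5. None of the 13 pairs was called without the variance trend, an alternative chosen after seeing the data, and none changed sign under any alternative. Groups of 2 arrays were too small for a search for single outlying arrays.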

How the results depend on the processing

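The 5449 calls between 12 h and 3 h ran between 4750 and 5497 over the alternatives that kept all 4 arrays, and between 3722 and 4298 when 1 array was left out. Higher calls were 53.2% of the calls as deposited and 49.0% with median centring, where the median of all changes was -0.015. Of the 98 probe sets named by the rules given above, 88 passed the stricter filter, and none of the 98 changed sign under any of the 14 alternatives. Other genes in the text are not among the 98, such as ATPC1, which changed sign with quantile normalization. Of the 97 genes, 20 lost the call at least once: 5 with quantile normalization (RCA, PRK, HPR, psbE and ndhC), 2 with no filter (ICL and ccb452), 3 with no variance trend (these and ndhC), and between 7 and 12 probe sets without 1 array. The genes whose call 1 array ended were psbC, PRL, AUR2, GH3.3, AT2G21640, nad1, SBE2.2, rps14, rps15, HYH, BCAT4, rpoB, AT1G11860, HPR, psbE, ndhC, ICL and ccb452. With treated seedlings, leaving out 1 array left between 2771 and 3215 calls for 7606596 (4215 in all) and between 2652 and 3316 for 5929745 (4038 in all), with the lowest count without 3 h replicate 2 for either compound.

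The counts of differing changes moved most. Against 7606596 they were 21 as reported, 35 with an offset of 64, 7 with no filter, 0 with no variance trend (chosen after seeing the data), and between 7 and 17 without 1 array, with 7 both without untreated 12 h replicate 1 and without 7606596 3 h replicate 2. Against 5929745 they were 18 as reported, 3 with no filter, 0 with no variance trend, and between 2 and 75 without 1 array. These were 75 and 7 without 12 h replicate 1 or 2 of 5929745, 11 and 2 without its 3 h replicate 1 or 2, and 4 and 3 without untreated 12 h replicate 1 or 2. The cause was not tested.

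Replicate numbers are shared between groups. Deviations of same-numbered arrays correlated at -0.0019 between untreated 12 h and 3 h, and between -0.197 and 0.117 over 21 pairs of groups (1 above 0.1), so the numbers do not show pairing. With a replicate block the calls were 5412 for untreated seedlings, 4196 with 7606596 and 3994 with 5929745, the differing changes 20 and 14, and all 98 named probe sets kept their call between the times. Of the 13 named differing changes 4 lost it under the block, with adjusted p of 0.0554 for AT3G13760 and 0.0616 for ASPGB1 against 7606596, and 0.0507 for AT1G29090 and 0.0512 for NRPB6B against 5929745.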

Other observations

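Further gene groups, formed by symbol prefix after the values had been seen, went in mixed directions between 12 h and 3 h in untreated seedlings. Of 7 tested TET genes, which code for tetraspanins of the plasma membrane, 3 were called lower and 0 higher, with a median log2 change of -0.31, and between 2 and 3 were called lower without 1 array. TET3 gave 741 and 791 at 12 h, against 1398 and 1292 at 3 h (log2 change -0.80 ± 0.14, limma adjusted p = 0.000203). Of 15 TBL genes, most of which are thought to acetylate cell wall polysaccharides, 2 were called higher and 5 lower, and without 1 array 1 was called higher and between 1 and 3 lower. Of 8 ALDH genes, aldehyde dehydrogenases, 3 were called higher and 2 lower, and without 1 array 2 and 1 in each fit. ALDH11A3 gave 4637 and 5025 at 12 h, against 9433 and 8945 at 3 h (log2 change -0.93 ± 0.11), while ALDH2C4 gave 4969 and 4342 at 12 h, against 3054 and 2813 at 3 h (log2 change 0.66 ± 0.11). Of 8 tested SWEET genes, 1 was called higher and 2 lower (37.5% called). SWEET2, a sugar transporter of the vacuole, gave 2114 and 2157 at 12 h, against 3970 and 3846 at 3 h (log2 change -0.87 ± 0.10). Among the TET, TBL and ALDH genes 42.9%, 46.7% and 62.5% were called, and 37.5% among the GSTU genes below, beside 34.2% over all tested probe sets. Of 8 GSTU genes, glutathione transferases, 3 were called lower, and 0 were without 3 h replicate 2 or without 12 h replicate 1.

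Of 12 UBP genes, ubiquitin-specific proteases, 3 were called higher and 0 lower, with a median of -0.053, and 1 was called higher without 12 h replicate 1. UBP23 gave 1261 and 1037 at 12 h, against 728 and 671 at 3 h (log2 change 0.70 ± 0.14, limma adjusted p = 0.000925). limma called 0 of 10 PRA, 0 of 8 SEC and 0 of 6 LSM genes, where 2, 0 and 1 had an unadjusted p under 0.05. Among all tested probe sets 34.2% were called.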
